A study of Mus musculus with 24 samples.

Results

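This report follows 10 genes whose products pass between liver cells as Wnt, R-spondin or HGF signals, or shape such signals: *Wnt2*, *Wnt9b*, *Wnt4*, *Wnt5a*, *Wnt11*, *Rspo1*, *Rspo3*, *Wls*, *Dkk3* and *Hgf*. They were taken by symbol from the 48820 entries of each of 4 mouse count tables, and each of the 10 symbols was found once in every table. RNA-seq counts were available for 24 libraries in 8 groups of 3. Endothelial cells (ECs, sorted as CD45-CD31+) and liver macrophages (sorted as CD45+Ly6C-F4/80+CD64+) came from mice aged 8 to 10 weeks, and whole livers came from mice aged 12 weeks. In *Gdf2/Bmp10* HSC-KO mice, *Lrat*-Cre deletes floxed *Gdf2* and *Bmp10* in hepatic stellate cells (HSCs), so both genes stay intact in other cells. The controls carried floxed *Gdf2* and *Bmp10* without Cre. A second pair of macrophage groups came from Smad4FF mice and from mice in which *Vav1*-Cre, active in blood cells, deletes *Smad4* (Smad4 cKO). All mice were on a C57BL/6 background by the labels, C57BL/6J by the study's methods. The labels number the libraries of sorted cells, and 3 numbers occur with the same genotype among both ECs and macrophages of the *Gdf2/Bmp10* mice, which was taken to mean 3 shared mice, although the labels do not say so and some numbers recur in the Smad4 table.

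Wnt proteins are lipid-modified ligands that need the carrier protein Wls to reach the cell surface. They bind Frizzled receptors with the coreceptors Lrp5 and Lrp6 and stabilise β-catenin, while R-spondins bind Lgr receptors and keep the ligases Znrf3 and Rnf43 from removing Frizzled. ECs around the central vein are known as a source of Wnt2, Wnt9b and Rspo3 for the neighbouring hepatocytes, which then express pericentral enzymes such as glutamine synthetase. HGF acts on the receptor Met of hepatocytes, and both ECs and HSCs are known to make it.

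Total counts ran from 60911527 to 110879155 per library, so that 3 counts, taken here as the limit of detection, corresponded to 0.0258 to 0.0524 CPM (counts scaled to a common library size, with TMM factors within each table). These limits cover counting error only. In HSC-KO livers *Gdf2* had 287, 178 and 189 counts against 2036, 720 and 2030 in the controls, and *Bmp10* had 7, 22 and 8 against 362, 209 and 180. *Smad4* had 1669, 1461 and 1289 counts in Smad4 cKO macrophages against 3894, 3185 and 4416. The sorted cells carried the markers of their labels, with the sum of 12 EC markers at 13436 to 18603 CPM in ECs and the sum of 12 macrophage markers at 19231 to 60229.7 CPM in macrophages. EC markers were also present in the macrophage libraries. *Cdh5*, 1 of these markers, is known to be expressed by Kupffer cells too and is left out of the sums in macrophages for that reason. It stood at 245 ± 44.0 CPM in macrophages of control mice against 1.45 ± 1.07 in those of HSC-KO mice (SD, n = 3), and the other 11 summed to 57.2 to 322 CPM in macrophages of control and HSC-KO mice, and to 588 to 2121 CPM in those of Smad4FF and Smad4 cKO mice.

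The bases before the start sites of 4 members are shown, since *Wnt2*, *Wnt9b* and *Hgf* fell in ECs and *Rspo1* rose in Smad4 cKO macrophages, as described below. They were taken from RefSeq (GRCm38.p6), read 5′ to 3′ on the strand of the gene, and end before the annotated first exon. Capitals mark GGCGCC, a palindrome that BMP-responsive SMAD complexes are known to bind.
Wnt2: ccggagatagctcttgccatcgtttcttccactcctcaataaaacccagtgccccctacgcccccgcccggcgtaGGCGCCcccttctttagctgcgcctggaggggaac
Wnt9b: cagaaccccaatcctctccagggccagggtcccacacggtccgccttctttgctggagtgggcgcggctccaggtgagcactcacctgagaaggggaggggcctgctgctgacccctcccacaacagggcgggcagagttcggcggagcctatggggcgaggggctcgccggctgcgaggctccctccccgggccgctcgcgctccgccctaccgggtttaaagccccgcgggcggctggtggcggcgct
Hgf: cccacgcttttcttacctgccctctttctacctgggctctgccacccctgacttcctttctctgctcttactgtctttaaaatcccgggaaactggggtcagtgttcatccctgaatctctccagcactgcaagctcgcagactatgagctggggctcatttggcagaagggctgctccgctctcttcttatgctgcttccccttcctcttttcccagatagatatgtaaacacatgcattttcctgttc
Rspo1: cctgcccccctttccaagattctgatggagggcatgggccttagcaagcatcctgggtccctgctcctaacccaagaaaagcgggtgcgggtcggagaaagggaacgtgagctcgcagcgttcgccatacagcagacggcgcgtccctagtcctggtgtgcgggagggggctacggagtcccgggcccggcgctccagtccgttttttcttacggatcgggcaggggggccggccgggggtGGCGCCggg

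These stretches lie at chr6:18030586-18030695 (minus strand), chr11:103749822-103750071 (minus), chr5:16553245-16553494 (plus) and chr4:124986180-124986429 (plus). Of the 10 members, 7 had an entry, all but *Rspo3*, *Dkk3* and *Wnt5a*. Windows of 250 bases before the RefSeq start were searched on both strands for GGCGCC, for the GATA core GATAA and for the TATA box TATAAA. Matches of different words cannot share bases. Of the 32851 windows in the table, 9.59% held GGCGCC, 22.6% GATAA and 12.4% TATAAA. The *Wnt2* window held 1 GGCGCC at position -175 and 2 GATA cores at -40 and -9, the last 2 inside the first exon of the GENCODE model and therefore not printed. *Rspo1* held GGCGCC at -9, and the *Wnt9b*, *Hgf* and *Wls* windows held none of the 3 words. *Wnt4* and *Wnt11*, neither called in any change described below, held 2 GGCGCC each, and *Wnt11* also a TATA box at -29. A match is a description of the letters only.

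The first question was which sample held each signal in control mice. Compared per length, as CPM per kb of exon, the level of *Wnt2* in control ECs was 231 ± 66.7 (SD, n = 3). *Rspo3*, the main R-spondin of liver ECs, followed at 31.0 ± 10.1, then *Wls* at 14.4 ± 0.528 and *Dkk3*, which encodes a secreted glycoprotein of the Dickkopf family, at 12.4 ± 4.22. *Wnt9b* reached 5.67 ± 2.20 and *Hgf* 2.83 ± 0.865. The ranges of mean ± SD overlapped between *Wls* and *Dkk3* and between *Wnt9b* and *Hgf*, and were apart between the other neighbours in this order. The remaining members were low in control ECs, with *Wnt4* at 0.175 ± 0.160, *Rspo1* at 0.0551 ± 0.0477 and *Wnt5a* at 0.00728 ± 0.0126 on the same scale. *Wnt11* had 0 counts in all 3 control EC libraries.

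**Figure D1:**
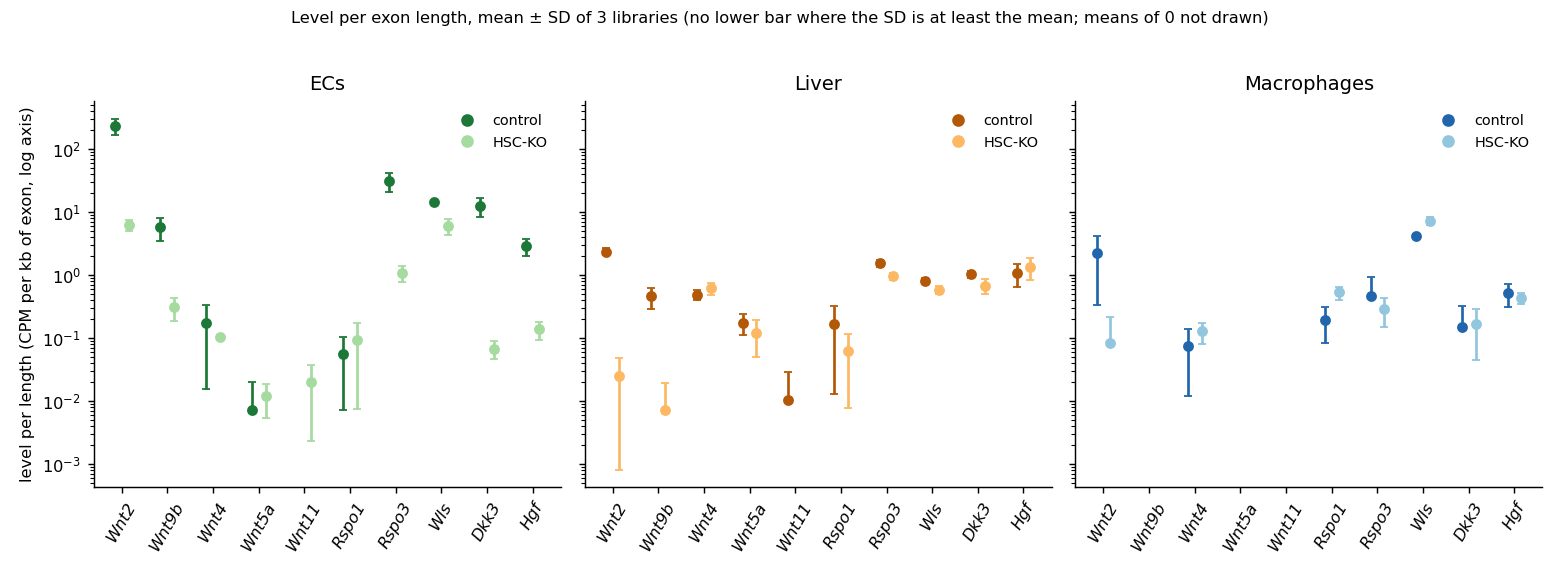
Level per exon length (CPM per kb, log axis) of the 10 genes in ECs, whole liver and macrophages of control and HSC-KO mice. Points are means and bars SDs of 3 libraries. *Wnt2* stood highest in control ECs at 231, and *Wls* stood highest in control macrophages at 4.22.

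In control livers the order was flatter, from *Wnt2* at 2.34 ± 0.302 CPM per kb through *Rspo3* at 1.52 ± 0.199, *Hgf* at 1.07 ± 0.429 and *Dkk3* at 1.02 ± 0.126 down to *Wnt11* at 0.0105 ± 0.0182. In control macrophages *Wls* led with 4.22 ± 0.255, and *Wnt9b*, *Wnt5a* and *Wnt11* had 0 counts in all 3 libraries. A count of 0 in the smallest of these libraries allows up to 0.0524 CPM.

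Between control ECs and control livers, 5 members were higher in ECs by edgeR's quasi-likelihood test (adjusted p below 0.05 and absolute log2 fold change above 1, the rule for every call below), where 25.3% of all 18205 genes tested were higher. They were *Wnt2* (log2 fold change 6.11, SE 0.86, adjusted p = 0.000208), *Rspo3* (3.83), *Wls* (3.64), *Wnt9b* (3.11) and *Dkk3* (3.09). *Hgf* differed by 0.88 (SE 0.41, adjusted p = 0.0835) and was not called, but was with library size alone (1.20, adjusted p = 0.0236). *Wnt4* and *Wnt5a*, a ligand best known for signalling without β-catenin, were lower in ECs than in liver, where 31.7% of all genes were lower. *Wnt4* had 42, 92 and 15 counts in control ECs and 219, 185 and 157 in control livers (log2 fold change -1.999, adjusted p = 0.0494), a call that was lost in 8 of 15 alternative fits, with adjusted p between 0.0147 and 0.145 over all of them. *Wnt5a* had 14, 0 and 0 counts in ECs against 200, 63 and 135 in livers (-5.01, adjusted p = 0.016), and its call was lost without control liver replicate 1 (adjusted p = 0.0504). *Rspo1* was not called (-2.13, adjusted p = 0.223), and *Wnt11* was not tested.

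Between control ECs and control macrophages, 6 members were called higher in ECs, where 17.2% of all genes tested were higher. *Wnt2* differed by a log2 fold change of 6.50, *Dkk3* by 6.17, *Rspo3* by 5.87, *Hgf* by 2.26 and *Wls* by 1.61. *Wnt9b* was at least 489-fold higher in ECs, computed against 3 counts in the smallest macrophage library. *Wnt4* (1.03, adjusted p = 0.329), *Rspo1* (-1.97, adjusted p = 0.309) and *Wnt5a*, with 14 counts in 1 EC library and 0 in the macrophages (adjusted p = 0.108), were not called, and *Wnt11* was not tested. Since each kind of sample was counted in a table of its own, cell type and table cannot be told apart in these 2 comparisons. Between ECs and livers the same holds for age, 8 to 10 against 12 weeks.

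Across the 3 control macrophage libraries the level of *Wnt2* had the same order as the EC markers. *Wnt2* stood at 0.603, 9.26 and 5.37 CPM in the 3 control libraries, in which the 11 EC markers summed to 68.7, 322 and 224 CPM. The *Wnt2* level was 0.878 to 2.87% of that sum, against 2.19 to 3.77% in control ECs. In HSC-KO macrophages it was 0 to 0.416%, with EC marker sums of 57.2 to 126 CPM. *Wls* behaved otherwise, at 11.4 to 57.5% of the EC marker sum in control macrophages against 0.704 to 0.730% in control ECs. The part of EC RNA in the macrophage values was not tested beyond these ratios.

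The second question was how the signals changed in ECs of HSC-KO mice. Of the 8 members that passed the count filter there, 6 were lower in HSC-KO ECs, where 6.01% of the 16053 genes tested were lower, and none was higher, where 7.68% were. Scaling by library size alone moved the share of lower genes among all calls from 43.9% to 27.5% and shifted the median log2 fold change of all genes by 0.30. The same EC control libraries served here and in the comparisons above. The sum of EC markers was 17957 to 18603 CPM in control ECs and 13436 to 14724 CPM in HSC-KO ECs. The 12 markers went both ways, from *Pecam1* (log2 fold change 0.83) to *Eng* (-1.31), the 1 that was called. Their median was 0.16. The sum of macrophage markers was 285 to 380 CPM in control ECs and 64.8 to 108 CPM in HSC-KO ECs, with 9 of 11 tested called lower. The groups did not overlap for 6 of the 8 members tested and for 40.4% of all genes. In bulk samples, fewer cells of a type and less RNA per cell cannot be told apart.

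*Wnt2* had 507, 379 and 679 CPM in the control ECs and 16.8, 13.5 and 11.7 CPM in the HSC-KO ECs. All 3 HSC-KO values lay far below the lowest control value, and the means differed 37.2-fold (log2 fold change -5.22, SE 0.28, adjusted p = 6.69e-05). *Wnt9b* had 31.6, 14.2 and 31.2 CPM in control ECs and 1.73, 0.768 and 1.74 in HSC-KO ECs. The groups did not overlap (-4.18, SE 0.44, adjusted p = 0.000775), and 1 library of each group lay clearly below its other 2. Both fell from different starting levels, and *Wnt2* in HSC-KO ECs was still above *Wnt9b* per length, at 6.21 ± 1.15 against 0.312 ± 0.123 CPM per kb.

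*Rspo3* had 115, 59.7 and 112 CPM in control ECs and 3.62, 4.10 and 2.30 CPM in HSC-KO ECs, without overlap (log2 fold change -4.84, SE 0.35, adjusted p = 0.000157). *Rspo1*, an R-spondin that is low in these cells, had 13, 10 and 0 counts against 20, 23 and 0 and was not called. An exon of *Rspo3* overlaps the gene model *Gm48159* on the opposite strand, and whether the counting used the strand is not given, so reads of that model cannot be told apart from those of *Rspo3*.

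*Wls* had 131, 122 and 128 CPM in control ECs and 70.9, 42.2 and 45.8 CPM in HSC-KO ECs. The groups did not overlap, but its change was the smallest of the 6 called, with a log2 fold change of -1.26 (SE 0.20, adjusted p = 0.00507). It stood at -0.98 with library size alone, short of the fold threshold. In HSC-KO ECs the carrier *Wls* was at 6.02 ± 1.78 CPM per kb, close to the level of *Wnt2*.

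*Dkk3* fell most, from 50.4, 25.4 and 49.5 CPM to 0.308, 0.181 and 0.196 CPM (log2 fold change -7.49, SE 0.40, adjusted p = 6.13e-05). *Hgf* fell from 15.2, 18.5 and 27.3 CPM to 0.934, 0.712 and 1.33 CPM (-4.35, SE 0.33, adjusted p = 0.000194). Neither gene overlapped between groups. The sum of 12 HSC markers in the EC libraries was 157 to 204 CPM in controls and 115 to 139 CPM in HSC-KO ECs, with 1 of 11 tested called lower. Relative to that sum, *Hgf* was 7.47 to 17.3% in control ECs and 1.43 to 2.73% in control livers. In HSC-KO ECs the *Hgf* ratio was 0.511 to 1.16%. For *Dkk3* the ratio was 15.3 to 31.5% in control ECs, 1.03 to 1.05% in control livers and 0.130 to 0.224% in HSC-KO ECs. *Rspo3* had 36.0 to 71.5%, 1.22 to 1.77% and 2.00 to 2.94% in the same order. The part of HSC and macrophage RNA in the EC values was not tested. An exon of *Hgf* overlaps the model *Gm43489* on the same strand, which had 120, 61 and 125 counts in control ECs and 2, 0 and 1 in HSC-KO ECs.

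The other 3 Wnt ligands were low in ECs. *Wnt4* had 42, 92 and 15 counts against 44, 32 and 34, and the groups overlapped. *Wnt5a* had 14, 0 and 0 counts against 8, 11 and 4, and *Wnt11* 0, 0 and 0 against 0, 10 and 9, and neither passed the count filter.

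**Figure D2:**
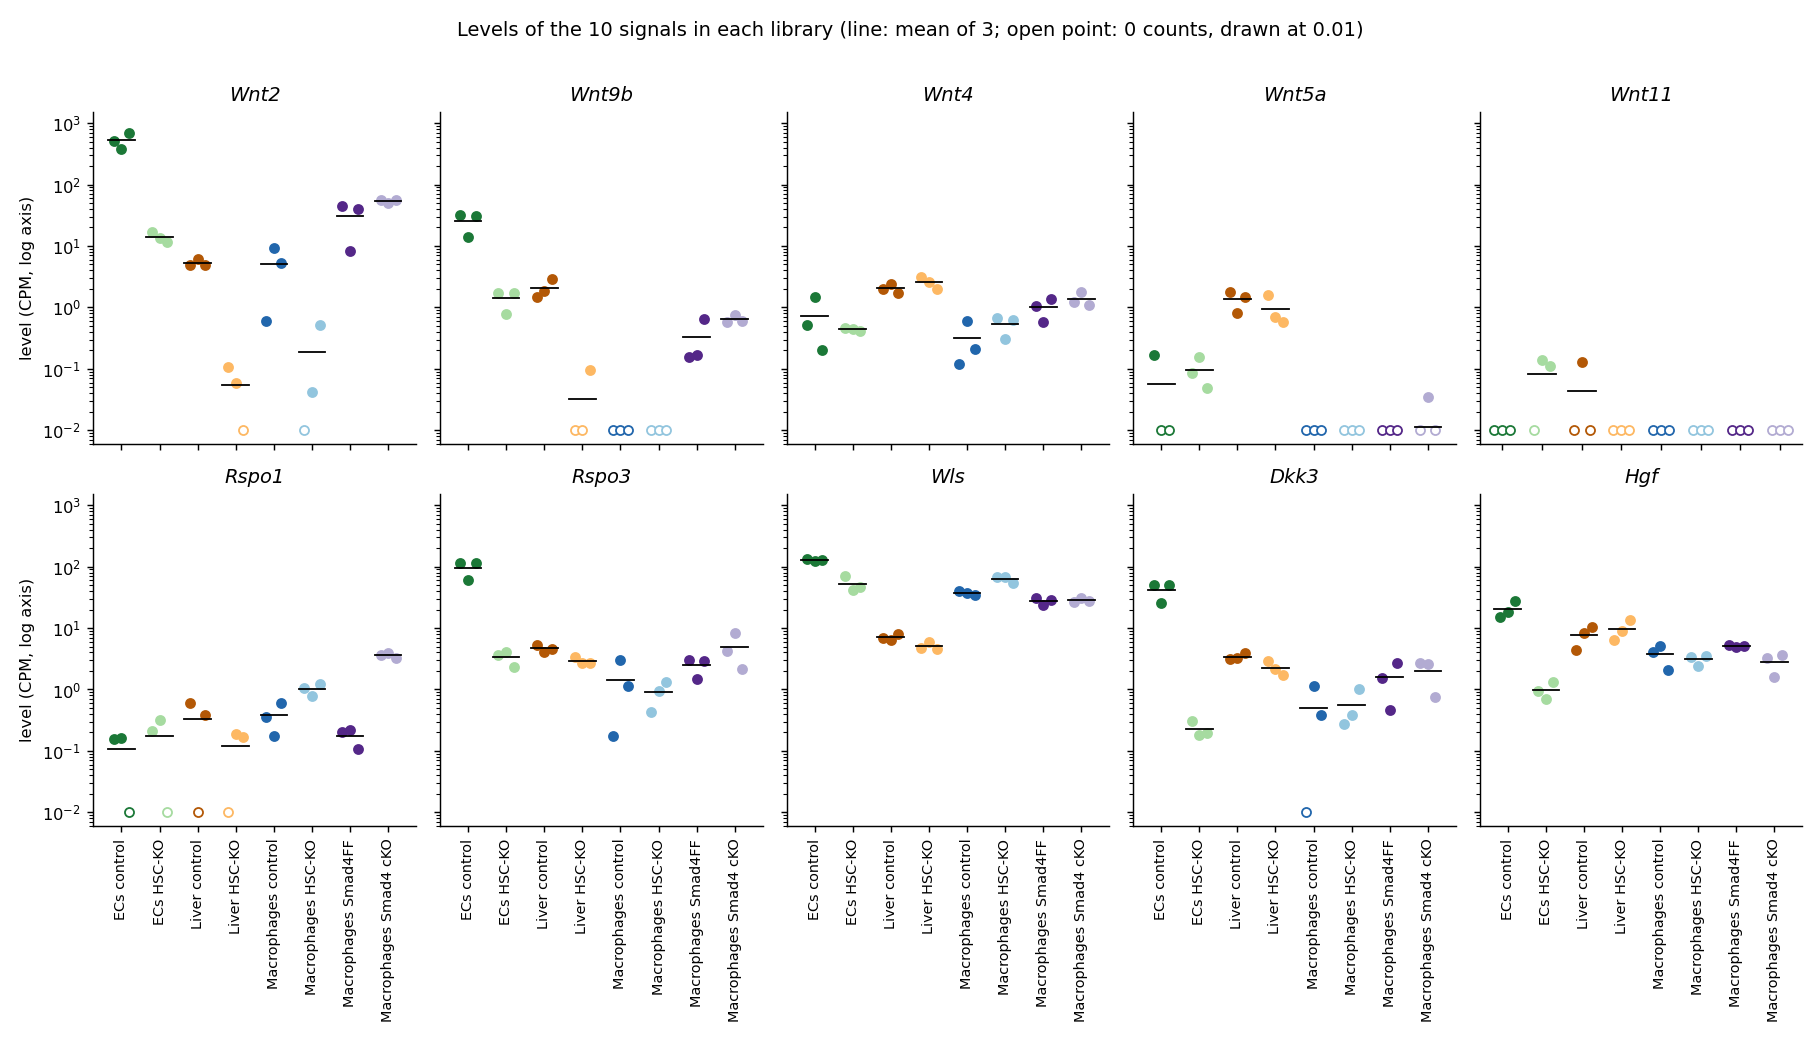
Level (CPM, log axis) of each of the 10 genes in all 24 libraries. Each point is 1 library, lines are means of 3 libraries and open points, drawn at 0.01 CPM, are libraries with 0 counts. In ECs the HSC-KO libraries lay below all controls for *Wnt2*, *Wnt9b*, *Rspo3*, *Wls*, *Dkk3* and *Hgf*. The EC groups did not overlap, in either direction, for 40.4% of all genes tested.

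The third question was whether whole livers changed in the same way. Of 9 members tested in liver, 2 were lower in HSC-KO mice, where 1.45% of the 17118 genes tested were lower, and none was higher, where 1.03% were. *Wnt2* had 538, 465 and 441 counts in control livers and 8, 5 and 0 in HSC-KO livers (log2 fold change -6.52, SE 0.67, adjusted p = 0.00338). *Wnt9b* had 161, 141 and 262 counts in control livers and 0, 0 and 7 in HSC-KO livers (-5.99, SE 1.06, adjusted p = 0.0295). The *Wnt9b* groups did not overlap, but its call rested on few counts and was lost without any 1 of 5 libraries, 3 of them controls, with adjusted p between 0.0637 and 0.133. The sum of 12 EC markers was 456 to 549 CPM in control livers and 451 to 522 CPM in HSC-KO livers. Its members went both ways in liver, from *Pecam1* (log2 fold change 1.00) to *Ptprb*, the 1 of 12 that was called (-1.14, adjusted p = 0.0156). The part of EC number in the *Wnt2* and *Wnt9b* values was not tested.

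The other genes that fell in ECs were not called in liver. The groups did not overlap for 5 of the 9 members tested there, against 19.7% of all genes. *Rspo3* had 5.35, 4.13 and 4.62 CPM in control livers and 3.36, 2.70 and 2.73 in HSC-KO livers, lower without overlap but short of both thresholds (log2 fold change -0.68, SE 0.21, adjusted p = 0.195). *Wls* had 6.91, 6.39 and 8.01 CPM against 4.81, 5.94 and 4.55 (-0.48, adjusted p = 0.329). *Dkk3* had 3.11, 3.26 and 3.90 CPM against 2.91, 2.15 and 1.74 (-0.59, adjusted p = 0.41). In these 2 genes, too, the HSC-KO values lay below the controls, by less than in ECs. *Hgf* had 4.33, 8.43 and 10.4 CPM against 6.43, 9.03 and 13.6, with groups that overlapped (0.33, SE 0.37, adjusted p = 0.813).

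*Wnt4* had 219, 185 and 157 counts in control livers and 234, 220 and 143 in HSC-KO livers. *Wnt5a* had 200, 63 and 135 against 118, 58 and 41, and *Rspo1* 66, 0 and 35 against 0, 16 and 12. All 3 overlapped between the groups and none was called. *Wnt11* had 10 counts in 1 control liver and 0 in the other 5 livers. Beside these values, several marker sums did not overlap between the livers. The sum of 12 HSC markers was 429 to 486 CPM in HSC-KO livers against 302 to 379 CPM, with 1 of the 12 called higher, and that of 8 fibroblast and smooth muscle markers 305 to 338 against 150 to 197 CPM, with 1 called higher. The sum of 7 hepatocyte markers was 135797 to 178433 against 102025 to 125946 CPM, with none called. Macrophage markers were at 82.0 to 125 against 453 to 761 CPM, with 10 of 12 called lower. Cholangiocyte markers (26.1 to 36.1 against 55.2 to 84.0 CPM) and those of T, B and NK cells (1.03 to 3.15 against 4.599 to 8.24 CPM) had 1 called lower each. The part of these cells in the members' liver levels was not tested.

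**Figure D3:**
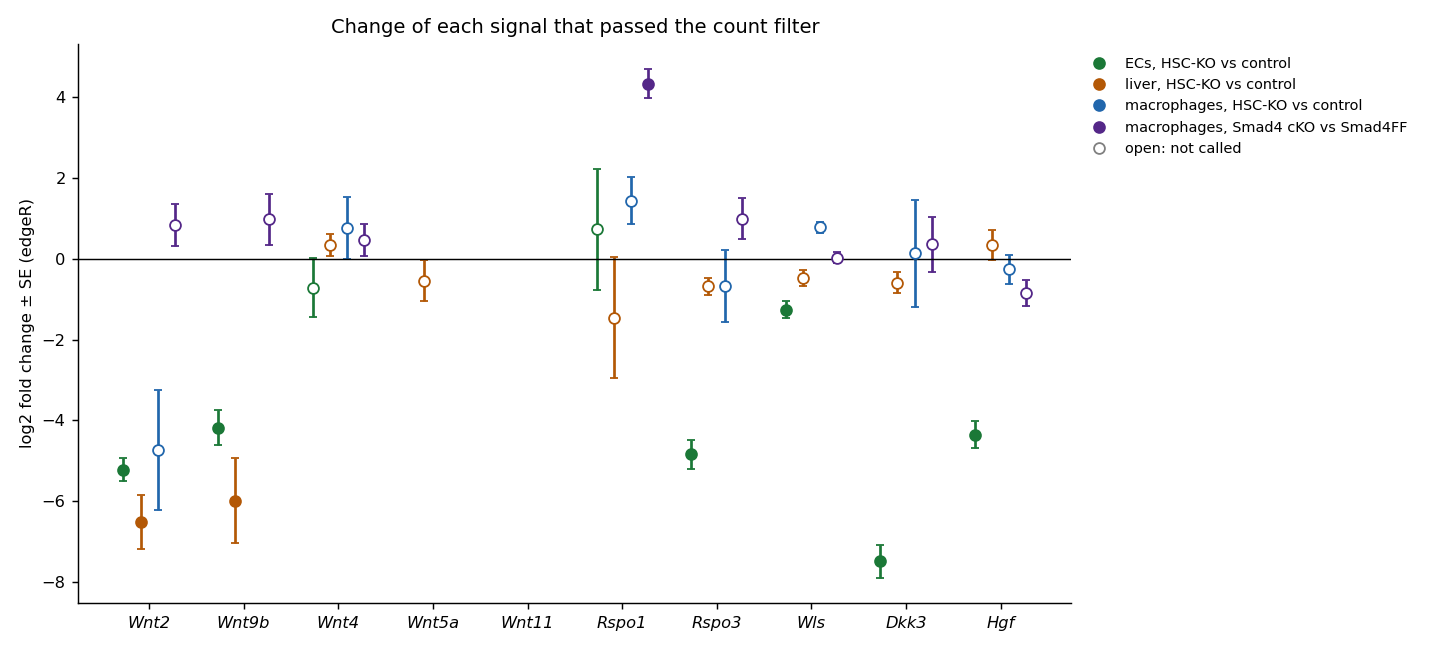
Log2 fold change with its SE for each gene that passed the count filter, in 4 comparisons of 3 against 3 libraries. Filled points were called. *Wnt2* and *Wnt9b* were called lower in both ECs and liver, *Rspo3*, *Wls*, *Dkk3* and *Hgf* in ECs, and *Rspo1* was called higher in Smad4 cKO macrophages.

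The difference between the EC change and the liver change was tested over 12 libraries as an interaction. ECs and livers also differed in age, which cannot be told apart from the kind of sample here. The interaction was called lower for 3 members, where 2.65% of the 18875 genes tested were. The log2 fold change in ECs minus that in liver was -6.86 for *Dkk3* (SE 0.46, adjusted p = 1.2e-05), -4.65 for *Hgf* (SE 0.56, adjusted p = 0.000495) and -4.12 for *Rspo3* (SE 0.39, adjusted p = 0.000114). For *Wnt2* the interaction was 1.34 (SE 0.62, adjusted p = 0.239), for *Wnt9b* 1.87 (SE 1.06, adjusted p = 0.346) and for *Wls* -0.75 (SE 0.27, adjusted p = 0.129), none of them called. Without HSC-KO liver replicate 3, the only one with *Wnt9b* counts, the *Wnt9b* interaction was called (6.53, adjusted p = 0.0465), and without HSC-KO EC replicate 1 that of *Wls* was (-1.03, adjusted p = 0.0104). Without control EC replicate 1, the only control EC library with *Wnt5a* counts, that of *Wnt5a* was called (adjusted p = 0.0436). With all libraries *Wnt5a* (1.24, adjusted p = 0.719), *Wnt4* (-1.02, adjusted p = 0.52), *Rspo1* (2.22, adjusted p = 0.694) and *Wnt11*, with 2 of the 4 groups at 0 (adjusted p = 0.173), were not called. With library size alone the lower share among all calls of this test was 18.8% in place of 40.6%, and the same 3 genes were called.

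The level in liver was also set against that in ECs, each scaled within its own table. In control mice the liver mean was 1.01% of the EC mean for *Wnt2*, 4.91% for *Rspo3*, 5.59% for *Wls*, 8.06% for *Wnt9b* and 8.19% for *Dkk3*. The 12 EC markers lay between 1.29% and 6.90%, with a median of 3.10%. *Hgf* was at 37.9%, *Wnt4* at 278% and *Wnt5a* at 2416%. *Rspo1* was at 308%, from counts that overlapped between the groups. In HSC-KO mice the EC markers lay between 1.13% and 8.71%, *Wnt2* was at 0.397%, *Wnt9b* at 2.30% and *Wls* at 9.63%. *Rspo3* was at 87.8%, *Hgf* at 975% and *Dkk3* at 993%, so that *Hgf* and *Dkk3* had higher CPM in HSC-KO livers than in HSC-KO ECs.

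**Figure D4:**
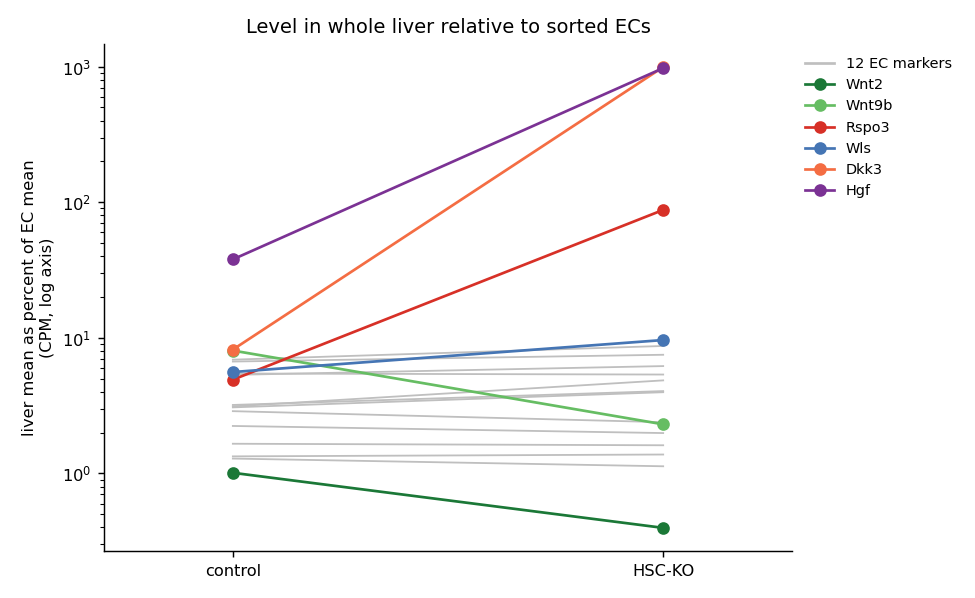
Mean level in whole liver as a percent of the mean level in sorted ECs (CPM, log axis) in control and HSC-KO mice. Each line is 1 gene, and grey lines are the 12 EC markers. *Rspo3*, *Dkk3* and *Hgf* rose to 87.8%, 993% and 975%, while the EC markers stayed between 1.13% and 8.71%.

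In macrophages of HSC-KO mice none of the 7 members tested was called by edgeR, where 6.32% of the 16337 genes tested were higher and 5.34% lower. At an unadjusted p below 0.05, 3 of the 7 passed, as did 5415 of all 16337 genes, and DESeq2 called *Wnt2* lower. The groups did not overlap for 3 of the 7 and for 40.3% of all genes, so neither share of the members stands far from the background. *Wls* rose with an adjusted p of 0.0074 but below the fold threshold, from 39.5, 36.7 and 35.04 CPM to 68.2, 68.7 and 53.1 CPM (log2 fold change 0.77, SE 0.14), and the groups did not overlap. *Rspo1* had 0.355, 0.177 and 0.612 CPM in controls and 1.05, 0.776 and 1.25 in HSC-KO macrophages, also without overlap (1.43, SE 0.58, adjusted p = 0.131). *Wnt2* had 51, 786 and 307 counts against 0, 4 and 48 (-4.73, SE 1.47, adjusted p = 0.0619). The *Wnt2* call was gained without control replicate 1 (adjusted p = 0.0373) or without HSC-KO replicate 3 (adjusted p = 0.0232). The EC marker sum stood at 68.7 to 322 CPM in these controls and 57.2 to 126 CPM in the HSC-KO macrophages, and its part in the *Wnt2* values was not tested. The sum of 12 macrophage markers was lower in HSC-KO macrophages, at 19231 to 20691 against 52449 to 54055 CPM. Of the 12, 4 were called lower, *Cd5l*, *Clec4f*, *Vsig4* and *Marco*. The other 8 ran from *Csf1r* (log2 fold change -0.77) to *Fcgr1* (0.07) and were not called. The sum of T, B and NK cell markers was higher, at 35.7 to 114 against 12.1 to 23.5 CPM, with 2 of 6 called higher. Fibroblast and smooth muscle markers were at 36.5 to 95.6 against 7.47 to 37.8 CPM, with *Dpt* called higher (2.79, adjusted p = 0.02). The part of these cells in the *Wls* and *Rspo1* values was not tested. *Wnt4*, *Rspo3*, *Dkk3* and *Hgf* overlapped between the groups, with adjusted p of at least 0.535.

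The difference between the EC change and the macrophage change was called lower for 4 members, where 6.32% of the 18213 genes tested were. The interaction was -7.63 for *Dkk3*, -4.18 for *Rspo3*, -4.09 for *Hgf* and -2.04 for *Wls* (SE 0.27, adjusted p = 0.000541). *Wls* thus fell in ECs and had its higher values in macrophages of the same genotype. For *Wnt2* it was -0.49 (SE 1.39, adjusted p = 0.897), for *Wnt4* -1.50 (adjusted p = 0.407) and for *Rspo1* -0.72 (adjusted p = 0.865), none of them called. It has no usable estimate for *Wnt9b*, which was at 0 in all these macrophages, and *Wnt5a* and *Wnt11* were not tested. The same 4 were called with limma-voom and the mouse as a random block, used because of the 3 mice inferred to be shared. With library size alone the lower share among all calls was 37.8% in place of 51.3%.

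In Smad4 cKO macrophages 1 of 8 members tested was called, *Rspo1*, where 2.76% of the 17517 genes tested were higher. *Rspo1* had 0.206, 0.221 and 0.107 CPM in Smad4FF macrophages and 3.64, 3.90 and 3.21 CPM in Smad4 cKO macrophages, a 20.1-fold difference of the means without overlap (log2 fold change 4.33, SE 0.35, adjusted p = 0.00065). The sum of 5 mesothelial markers was at most 0.465 CPM in any of these 6 libraries. EC markers other than *Cdh5* summed to 588 to 2121 CPM in Smad4FF and to 1627 to 2078 CPM in Smad4 cKO macrophages, and HSC markers to 173 to 201 and 100.1 to 140 CPM. The 12 macrophage markers summed to 21301 to 25673 CPM in Smad4 cKO against 49883 to 60229.7 CPM. Of these, 5 were called lower, and the other 7 ran from *Fcgr1* (-0.71) to *C1qa* (-0.15) and were not called. Cholangiocyte markers were at 10.3 to 22.5 against 4.31 to 5.57 CPM, with *Krt7* called higher of 5. The sums of 8 fibroblast and smooth muscle markers overlapped, at 55.8 to 75.6 against 45.4 to 65.3 CPM. Of these, *Lum* was called higher (1.53, adjusted p = 0.045), but the list's median was -0.47, with *Dpt* at -1.24 and *Acta2* at -1.08. The part of none of these cells in the *Rspo1* values was tested. Per length, *Rspo1* reached 1.85 ± 0.179 CPM per kb there against 3.19 ± 0.241 for *Wls*.

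*Wnt2* was also counted in the Smad4 macrophage libraries, at 44.1, 8.15 and 39.4 CPM in Smad4FF and 55.8, 50.5 and 56.5 CPM in Smad4 cKO (log2 fold change 0.83, SE 0.52, adjusted p = 0.431). The groups did not overlap, as for 3 of the 8 members and 29.4% of all genes, but the difference was not called. Smad4FF replicate 2, the lowest in *Wnt2*, also had the lowest EC marker sum. The *Wnt2* level was 1.38 to 2.08% of the EC marker sum in Smad4FF and 2.51 to 3.47% in Smad4 cKO macrophages, against 2.19 to 3.77% in control ECs. The Smad4FF values lay below the control EC range and the Smad4 cKO values within it. *Hgf* had 5.21, 4.90 and 5.18 CPM against 3.21, 1.59 and 3.68, lower in Smad4 cKO without overlap and not called (-0.85, SE 0.32, adjusted p = 0.172). The other 5 tested members were not called, with adjusted p of at least 0.323. With library size alone the share of lower genes among all calls of this comparison was 37.6% in place of 49.1%, and *Rspo1* was called either way.

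The remaining genes of the Wnt, R-spondin and HGF pathways were taken from lists of known pathway members. In liver, 10 of 10 pericentral Wnt targets of hepatocytes that the study itself shows were lower, a list chosen on these samples and so no independent evidence of its direction. Their median log2 fold change was -2.78, against -0.01 over all genes. *Glul*, which encodes glutamine synthetase, fell from 718 ± 163 to 22.2 ± 3.44 CPM (SD, n = 3), and *Lgr5*, a receptor for R-spondins, from 5.97 ± 4.14 to 0.193 ± 0.0694 CPM. Of 11 further Wnt targets, 5 were lower and none higher, where 1.45% and 1.03% of all genes were, with a median of -0.96. *Slc1a2*, a glutamate transporter, had 18657, 10908 and 12844 counts in control livers and 8, 0 and 0 in HSC-KO livers. *Sp5*, a transcription factor induced by Wnt signals, had 265, 113 and 68 counts against 0 in all 3 HSC-KO livers, at least 36.9-fold lower. *Rhbg*, an ammonium transporter, changed by -3.71, *Gulo* by -2.16 and *Notum*, a deacylase that inactivates Wnts, by -1.43.

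The same targets moved both ways in ECs, where 6.01% of all genes were lower and 7.68% higher. Of the first list, 7 were tested there, and *Glul* was lower (-1.45) and the transcription factor *Tbx3* higher (2.88). Of the further targets, also 7 tested, *Nkd1* (-2.79), *Cyp27a1* (-2.75), *Tcf7* (-2.46) and *Rgn* (-2.26) were lower and *Lef1* (4.08) and *Znrf3* (1.97) higher. The 7 hepatocyte markers summed to 48.6 to 97.9 CPM in control ECs and 37.5 to 53.7 CPM in HSC-KO ECs, all 7 had a negative log2 fold change and *Apob* was called lower (-2.62, adjusted p = 0.039). In control livers the same 7 markers summed to 102025 to 125946 CPM. The part of hepatocyte RNA in the targets' EC values was not tested.

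In liver, where 1.03% of all genes tested were higher and 1.45% lower, none of 13 Frizzled receptors and coreceptors was called. Of 4 R-spondin receptors and ligases *Lgr5* (-4.95) and *Rnf43* (-1.41) were lower there, both also in the list of Wnt targets. *Lgr4* was at 0.58 (adjusted p = 0.0416) below the fold threshold, and *Lrp6* at 0.35. In ECs 3 of 12 receptors and coreceptors were higher and 2 lower, where 7.68% of all genes tested were higher and 6.01% lower. *Lrp6* fell from 138 ± 16.8 to 54.7 ± 11.1 CPM (log2 fold change -1.33, SE 0.18, adjusted p = 0.00202) and *Lrp5* from 24.2 ± 10.4 to 11.8 ± 1.46 CPM (-1.04, SE 0.29, adjusted p = 0.0404). *Kremen2* (1.97) and *Ptk7* (1.70) were higher, and *Fzd3* had 26, 31 and 62 counts in HSC-KO ECs and 0 in all 3 control ECs, at least 10.1-fold higher. *Znrf3*, a ligase that removes Frizzled receptors, rose from 2.41 ± 1.68 to 9.41 ± 1.94 CPM. *Fzd4*, a Frizzled receptor of ECs, was at 0.82 (adjusted p = 0.013) below the fold threshold, and *Fzd8* was at 0.07.

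Of the secreted antagonists, 1 of 5 tested in ECs was higher, where 7.68% of all genes were. None of 4 in liver was called, where 1.03% of all genes were higher and 1.45% lower. *Dkk2*, which blocks Lrp5 and Lrp6, had 3, 15 and 7 counts in control ECs and 346, 324 and 161 in HSC-KO ECs (log2 fold change 4.79, SE 0.70, adjusted p = 0.0031), opposite in direction to *Dkk3*. Of 14 other Wnt ligands, 1 passed the filter in ECs and 3 in liver, and none was called. Neither *Rspo2* nor *Rspo4* passed it in either. *Porcn*, the enzyme that adds the lipid to Wnts, was at 0.10 in ECs and 0.26 in liver, neither called.

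In the HGF system, none of 10 genes was called in liver, where 1.03% of all genes were higher and 1.45% lower. *Met* was at 0.21 there (adjusted p = 0.571). In ECs 3 of 10 were higher and 1 lower, where 7.68% and 6.01% of all genes were. *Met* rose from 0.197 ± 0.112 to 1.16 ± 0.572 CPM (log2 fold change 2.54, SE 0.64, adjusted p = 0.0286), and *Plat*, a plasminogen activator, from 4.28 ± 0.730 to 24.2 ± 5.08 CPM. *Spint2*, an inhibitor of the proteases that activate pro-HGF, fell from 78.4 ± 5.21 to 11.04 ± 4.14 CPM.

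**Figure D5:**
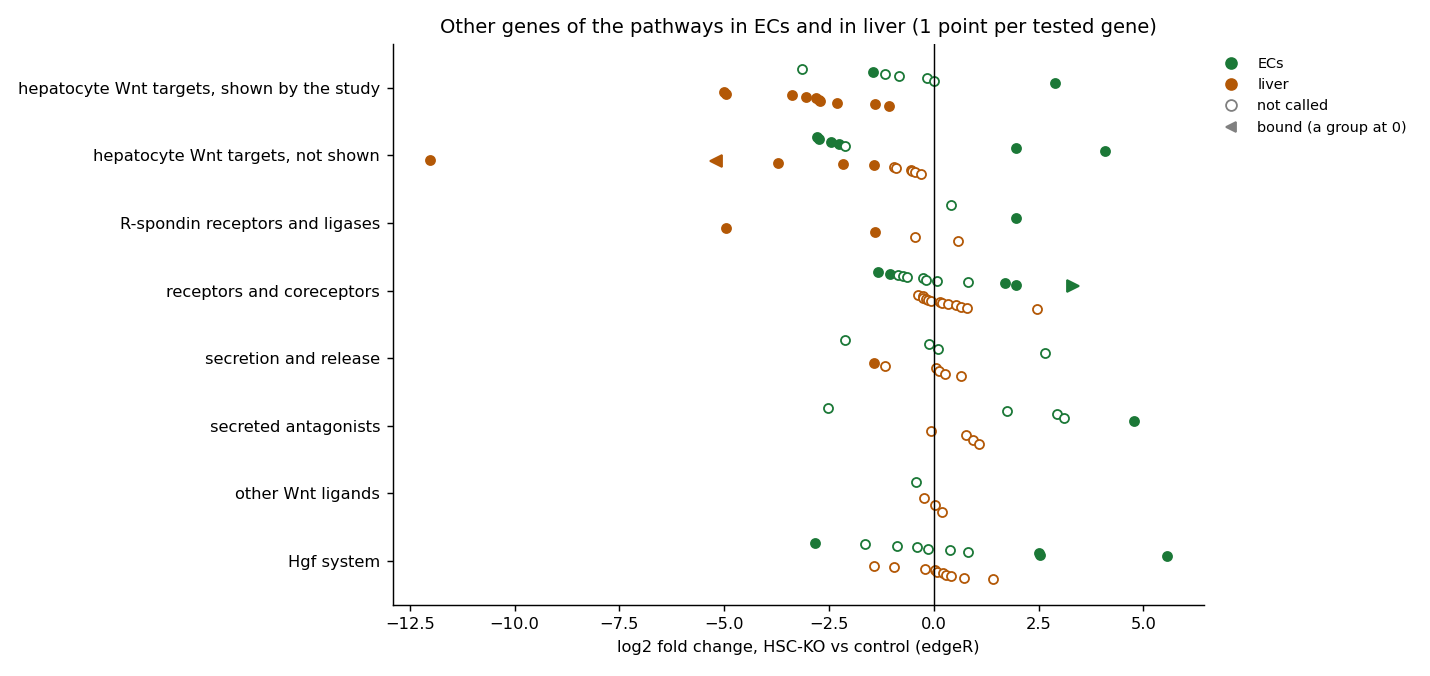
Log2 fold change (HSC-KO against control) of the other pathway genes that passed the count filter in ECs and in liver, by list. Filled points were called, and triangles mark bounds for genes with 0 counts in a whole group. All 10 Wnt targets shown by the study lay below 0 in liver, and the receptors lay on both sides in each sample.

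The genes whose levels ran most like those of *Wnt2*, *Wnt9b* and *Rspo3* were named from Pearson's r of log2 CPM over the 18 control and HSC-KO libraries of ECs, livers and macrophages, among 15943 genes. The libraries of a table share their kind of sample, so r is a description. For *Wnt2* they were *Cdh13* (r = 0.971), *Il13ra2* (0.967) and *Rab3b* (0.965), for *Wnt9b* *Ccdc160* (0.9602), *Pgm5* (0.926) and *Kazn* (0.926), and for *Rspo3* *Nkd1* (0.943), *Flrt1* (0.929) and *Gm16867* (0.928). *Cdh13*, an adhesion protein listed here with 6 other genes of pericentral ECs, went from 409 ± 125 to 22.7 ± 16.9 CPM in ECs and from 4.75 ± 0.674 to 0.213 ± 0.0633 CPM in liver. *Nkd1*, an inhibitor of Wnt signalling that Wnt signals induce, fell from 50.4 ± 9.89 to 7.26 ± 4.74 CPM in ECs, and was at 7.05 ± 1.42 and 4.82 ± 0.534 CPM in liver without a call.

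The pericentral EC list as a whole moved both ways in ECs. Of its 7 genes 2 were lower, *Cdh13* (-4.17) and the receptor *Kit* (-3.61), and 2 higher, *Fabp4* (1.86) and *Thbd* (1.11). Of all genes tested in ECs, 6.01% were lower and 7.68% higher. Of 5 periportal EC genes 2 were lower in ECs, *Msr1* (-3.98) and *Ntn4* (-2.46), and none higher. In liver, where 1.45% of all genes were lower and 1.03% higher, *Cdh13* (-4.46), *Kit* (-1.76) and *Ptgs1* (-1.51) of the first list were lower. *Adam23* (-5.58), *Msr1* (-3.24) and *Ntn4* (-2.12) of the second were lower there too, and *Fabp4* was higher (2.02). *Msr1* is also a scavenger receptor of macrophages, whose 12 markers summed to 285 to 380 CPM in control ECs and 64.8 to 108 CPM in HSC-KO ECs, and their part in its values was not tested.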

How the data were processed

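RNA was sequenced from sorted ECs, sorted liver macrophages and livers, 3 samples per group. The labels call these samples replicates, and p-values measure the spread between them. The labels name a Hieff NGS library kit and the study's methods an Illumina kit. Per the submitters' processing notes, HISAT2 was used with mm10 (GRCm38), and the authors deposited whole-number counts per gene from FeatureCounts, not normalized. Versions, annotation release and use of the strand are not given in the sources used here. FastQC and DESeq2 are also named in those notes. 483 entries share a symbol with another entry, none of them a member.

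Counts were filtered with filterByExpr (minimum count 10, minimum total 15), scaled with TMM and tested with the quasi-likelihood test of edgeR 4.0.16 (R 4.3.3, limma 3.58.1), adjusted over all genes tested by the Benjamini-Hochberg method. The 4 two-sided comparisons of 3 against 3 libraries used only their own 6 libraries. The source comparisons used the 9 control libraries and the interactions 12, joined from the tables by symbol and scaled together. A permutation of 3 against 3 libraries cannot go below p = 0.1, so p-values came only from fits across all genes. Fits were tested on simulated data.

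All 10 members were among the genes named. From the other lists, up to 4 called genes with the largest change per list in ECs and in liver were named, with 13 receptors and enzymes and, for *Wnt2*, *Wnt9b* and *Rspo3*, the 3 genes of highest correlation (log2 CPM, prior count 2). Other genes of these lists are named as examples chosen after their values were seen. The values of 1 list gene are not reported here. *Fzd6* and *Ltbp4* have 2 entries each, and the hepatocyte marker *Tf* matched no symbol, and these were left out. Members and lists were chosen with earlier results of these data known. Exon lengths and positions came from GENCODE vM21 (GRCm38), which holds 46370 of the 48574 symbols and may not be the release the authors used. Alternatives were DESeq2 1.42.0, DESeq2 size factors, library size alone, 2 other count filters, glmTreat, each library left out, the replicate number as a block and coding length. Limma-voom with the mouse as a random block was chosen after seeing the data. Python 3.11.15 was used for sequences and figures.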

Additional observations from a re-analysis of the deposited data

Results flagged for a closer look

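The change of several members differed between kinds of sample from the same genotype by a test of the difference itself, edgeR's interaction over 12 libraries. Between ECs and liver, the log2 fold change in ECs minus that in liver was -4.12 for *Rspo3* (adjusted p = 0.000114), -6.86 for *Dkk3* (adjusted p = 1.2e-05) and -4.65 for *Hgf* (adjusted p = 0.000495). Between ECs and macrophages it was -4.18 for *Rspo3* (adjusted p = 0.0178), -2.04 for *Wls* (adjusted p = 0.000541), -7.63 for *Dkk3* (adjusted p = 0.00343) and -4.09 for *Hgf* (adjusted p = 0.000403). In *Wls* all 3 HSC-KO libraries lay below the controls in ECs and above them in macrophages. The EC libraries are shared by both tests, and ECs and livers came from mice of different age, which cannot be told apart from the kind of sample. Groups of 3 libraries were not tested for single outlying libraries.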

How the results depend on the processing

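Over the members' log2 fold changes, 889 alternative values kept their direction and side of the threshold, 18 lost a call, 8 gained one and 14 turned in direction. Counts of called members in ECs stayed at 6 under every library left out, and at 5 with library size alone or glmTreat, which took out *Wls*. In liver, glmTreat and the replicate block left 1 called member, and a minimum of 10 counts in every library left 0, since it removes *Wnt2* and *Wnt9b* from the test by its construction. Leaving out libraries gave 1 to 2 called members and 188 to 451 called genes in liver, 0 to 1 called members in macrophages, and 566 to 909 called genes in Smad4 cKO macrophages. DESeq2 and the replicate block each called 1 member in macrophages, *Wnt2*. Of all genes, glmTreat called 1096 in ECs, 142 in liver, 906 in macrophages and 315 in Smad4 cKO macrophages (2198, 425, 1904 and 951 by edgeR's main test). DESeq2 called 794 in liver and 1955 in the EC and liver interaction (1232 by edgeR), and the replicate block 271 in liver. The causes were not tested.

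With the replicate block the call of *Wnt9b* in liver was lost and *Wnt2* in macrophages was called (adjusted p = 0.0279). The block changed no other call of a member in the comparisons of 2 groups. Samples of the same replicate number deviated together with r between -0.107 and 0.162, so the numbers were not taken as pairs. With 1 library left out, these uncalled values turned in direction: *Wnt4* in ECs (-1.17 to 0.30), *Dkk3* (-0.63 to 1.56), *Rspo3* (-1.19 to 0.49) and *Hgf* (-0.55 to 0.0106) in macrophages, *Wls* (-0.0789 to 0.0904) and *Dkk3* (-0.10 to 0.99) in Smad4 cKO macrophages, *Wnt4* between control ECs and macrophages (-0.0024 to 2.01), and the interactions of *Wnt4* with liver (-1.48 to 0.00552) and of *Wnt2* with macrophages (-1.27 to 2.54, and 0.63 with the mouse as a random block). Per coding length, *Wnt2* in control ECs was 4.49 times *Rspo3* in place of 7.67 times, with all 10 members in the same order. In control livers only 5 of 10 kept their rank. Genes near 3 counts, such as *Wnt11*, are limited by depth.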

Other observations

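In macrophages of HSC-KO mice, 5 of 9 genes tested from the HGF system were higher and none lower, where 6.32% of all genes were higher. Their list had a median log2 fold change of 2.48, against 0.04 over all genes. *Plau*, the urokinase gene, went from 1.51 ± 0.523 to 8.39 ± 2.62 CPM (SD, n = 3). *Met* went from 0.351 ± 0.217 to 2.06 ± 0.882 CPM. *St14*, which encodes a membrane protease, had 35, 16 and 0 counts against 181, 238 and 192, and *Spint1*, an inhibitor of the HGF activator, 73, 0 and 0 against 498, 592 and 1383. *Hgf* itself overlapped between these groups. Markers of T, B and NK cells were at 35.7 to 114 CPM against 12.1 to 23.5 CPM, and those of cholangiocytes, an epithelium, at 3.57 to 6.06 against 0.437 to 4.13 CPM, with *Krt7* called higher (2.61, adjusted p = 0.0243). Fibroblast and smooth muscle markers were at 36.5 to 95.6 against 7.47 to 37.8 CPM. The part of these cells in the list's values was not tested.

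*Slc1a2*, a Wnt target in hepatocytes, was also lower in macrophages of HSC-KO mice, with 21, 23 and 29 counts against 6224, 5774 and 3354, and in Smad4 cKO macrophages, with 56, 46 and 14 against 7076, 8011 and 4941. Hepatocyte markers summed to 298 to 466 CPM in HSC-KO macrophages and to 217 to 782 CPM in the controls, but 2 of the 7 were called lower, *Cps1* (-4.28, adjusted p = 0.00239) and *Hnf4a* (-4.92, adjusted p = 0.0142), as were the hepatocyte genes *Cyp1a2*, *Cyp2e1*, *Gulo* and *Rgn* (12.02 ± 7.33 to 0.299 ± 0.261 CPM). In the Smad4 libraries the sum was 116 to 350 CPM in cKO and 227 to 412 CPM in Smad4FF, with none of the 7 called. *Slc1a2* stood at 66.7 ± 7.56 CPM in the control macrophages and at 151 ± 15.4 CPM in control livers (SD, n = 3). In control livers the 7 hepatocyte markers summed to 102025 to 125946 CPM. The part of hepatocyte RNA in the *Slc1a2* values was not tested.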
